A study of Homo sapiens with 6 samples.

Results

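The genes examined were 39 members of the unfolded protein response and of the stress response driven by the transcription factor ATF4, measured by RNA sequencing in MDA-MB-231 cells, an established human triple-negative breast cancer line. They were taken by gene symbol as genes with known roles in these responses, with earlier results of the same data known. In all, 22 belonged to the ER chaperone arm, which here also holds the stress sensors and the degradation machinery of the endoplasmic reticulum (ER), and 17 belonged to the ATF4 arm. The files listed 60612 genes, of which 14770 reached 0.5 FPKM on average in the 6 libraries and were tested. FPKM counts fragments relative to transcript length and to the fragments mapped in a library, so levels can be compared between genes. Of the members, 38 passed this filter, all 22 of the ER chaperone arm and 16 of the ATF4 arm. The exception was STC2.

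The comparison was between 2 cell groups with 3 libraries each. Both were MDA-MB-231 cells collected on day 3 with no treatment, and they stably expressed either a control hairpin (Sh-NC, genotype WT in the labels) or a hairpin against YAP1 (Sh-YAP1), the transcriptional co-activator of the Hippo pathway. The sources used here do not say how many hairpins each group held, and the numbers in the library names were read as replicates. Effects of the YAP1 loss and of the hairpin itself thus cannot be told apart. No label stated that the libraries came from separate cultures, so p-values measure the spread between these libraries, which may be technical. YAP1, the targeted gene, was 28.1, 26.2 and 22.9 FPKM in Sh-NC, against 3.35, 2.67 and 2.58 FPKM in Sh-YAP1, a log2 fold change of -2.79 (SE 0.12, adjusted p = 0.0018). FPKM summed over all genes ranged from 467493 to 475116 per library, and 13037 to 13219 genes reached 1 FPKM. The sequencing depth behind the values is unknown. Of 9 identity markers of the line, VIM was between 1645 and 2303 FPKM, CD44 between 114 and 147, KRT8 between 126 and 164 and KRT18 between 99.9 and 126. Among those expected to be low or absent, ESR1, PGR and CDH1 had means under the 0.5 FPKM filter, while EPCAM lay between 2.43 and 3.27 FPKM and the receptor ERBB2 between 14.3 and 18.1. The 6 identity markers tested all had log2 fold changes below 0, from -0.23 to -0.06, and 0 were called, although KRT18 was lower in Sh-YAP1 without overlap (means 124 and 106 FPKM, adjusted p = 0.102). Of 6 markers of other cell types, PTPRC, CD3E and COL2A1 were under the filter, PECAM1 was between 0.76 and 1.70 FPKM, ALB 1.49, 1.79 and 1.61 in Sh-NC and 1.25, 0 and 0 in Sh-YAP1 (adjusted p = 0.141), and CD68, a lysosomal protein that cells other than macrophages also express, between 56.2 and 80.2. The part of these markers in the results was not tested.

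When unfolded proteins build up in the ER, sensors in its membrane are released from the chaperone HSPA5 and switch on separate branches. ATF6 is cut to a transcription factor and ERN1 (IRE1) splices the XBP1 mRNA, and both branches raise chaperones, folding enzymes and the machinery that returns misfolded proteins to the cytosol for degradation. The kinase EIF2AK3 (PERK) phosphorylates the initiation factor eIF2α, which lowers general translation but favours that of ATF4. The same step is reached from amino acid shortage and other stresses through related kinases, so the ATF4 programme can run without ER stress. Secretory and fast-growing tumour cells are known to lean on both arms.

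Sequence elements known from this response were searched in the promoters. RefSeq promoter windows on GRCh38.p14, which run from 250 bases before to 50 bases after each gene's start, were held for 36 of the 39 members. PDIA3, PSPH and SHMT2 had none. The ER stress element (ERSE) was searched on both strands as CCAAT and CCACG with 9 free bases between them, the second form (ERSE-II) as ATTGG and CCACG with 1 free base between them, and the C/EBP-ATF response element (CARE), a site type bound by ATF4 dimers, as TGATGNAA. The ERSE stood in the promoters of 25 of 27305 genes (0.0916%), 7 of them among the 21 ER chaperone arm members searched and none among the 15 ATF4 arm members. The ERSE-II stood in 19 promoters (0.0696%), 3 of them of ER chaperone arm members. The CARE stood in 1217 promoters (4.46%), including 3 of the ATF4 arm and 1 of the ER chaperone arm. The shorter CCAAT box, which both ER elements contain on one strand, stood in 10846 promoters (39.7%), in 19 of the 21 and in 10 of the 15. TRIB3 and DDIT4, the members called between the groups, held none of the 3 longer motifs in this window. The windows are short, and a match is a description of letters.

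The 160 bases before the start of HSPA5 are shown because this gene is the standard reporter of the response (chr9:125241344-125241503, minus strand). The exact ERSE match is in capitals, 66 to 48 bases before the start, and near matches were not marked:
HSPA5: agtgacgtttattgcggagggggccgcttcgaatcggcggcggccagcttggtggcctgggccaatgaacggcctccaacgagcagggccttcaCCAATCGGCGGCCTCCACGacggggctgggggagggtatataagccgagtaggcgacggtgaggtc

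The other ER members with a match are shown with 10 bases on each side and the motif in capitals, so that the shared ends and the free middle can be compared. An ERSE was read as written above in HSP90B1 (chr12:103930206-103930244, plus strand), PDIA6 (chr2:10812843-10812881, minus strand), CANX (chr5:179698768-179698806, plus strand) and XBP1 (chr22:28800593-28800631, minus strand):
HSP90B1: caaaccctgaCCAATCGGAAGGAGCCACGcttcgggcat
PDIA6: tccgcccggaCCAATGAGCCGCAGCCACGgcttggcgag
CANX: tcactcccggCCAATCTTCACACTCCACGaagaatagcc
XBP1: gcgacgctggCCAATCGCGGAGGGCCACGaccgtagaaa
It ran on the opposite strand of the gene in CALR (chr19:12938374-12938412, plus strand) and CRELD2 (chr22:49918544-49918582, plus strand), and in a second site of HSP90B1 (chr12:103930311-103930349, plus strand):
CALR: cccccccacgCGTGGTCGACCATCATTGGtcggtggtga
CRELD2: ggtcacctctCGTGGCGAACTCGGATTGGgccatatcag
HSP90B1: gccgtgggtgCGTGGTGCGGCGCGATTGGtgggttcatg
The ERSE-II stood in HERPUD1 (chr16:56932015-56932045, plus strand) and, on the opposite strand of the gene, in SDF2L1 (chr22:21642104-21642134, plus strand) and HYOU1 (chr11:119057370-119057400, minus strand, with another at chr11:119057264-119057294):
HERPUD1: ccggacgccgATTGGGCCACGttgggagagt
SDF2L1: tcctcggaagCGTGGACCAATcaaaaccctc
HYOU1: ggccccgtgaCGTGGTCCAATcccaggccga
HYOU1: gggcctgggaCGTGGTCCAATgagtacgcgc

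The CARE match of the ER chaperone arm was in HERPUD1 and is not shown. Those of the ATF4 arm are shown. They stood in ASNS (chr7:97872459-97872486, minus strand) and CEBPG (chr19:33374061-33374088, plus strand), and on the opposite strand in CHAC1 (chr15:40953252-40953279, plus strand):
ASNS: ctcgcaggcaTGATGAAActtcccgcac
CEBPG: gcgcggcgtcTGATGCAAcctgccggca
CHAC1: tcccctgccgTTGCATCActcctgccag

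Between Sh-YAP1 and Sh-NC, TRIB3 and DDIT4 of the ATF4 arm were higher in Sh-YAP1, and no other of the 38 members passed the test. By the ratio of mean FPKM, TRIB3 was 1.66-fold and DDIT4 1.31-fold higher. Of 16 alternative settings 9 ended the call of TRIB3 and 10 that of DDIT4, all with the direction kept. In the ER chaperone arm 0 of 22 members had an adjusted p under 0.05 and so were called (limma on log2(FPKM + 1), Benjamini-Hochberg adjustment over all genes tested), against 499 of all 14770 genes (3.38%). At an unadjusted p under 0.05, 4 of the 22 passed, where 21.9% of all genes did. In the ATF4 arm 2 of 16 were called higher, against 1.75% of all genes, and 0 were called lower, against 1.62%. Unadjusted, 5 of the 16 passed, of which TRIB3, DDIT4 and PPP1R15A were higher and CHAC1 and CEBPB lower. The median log2 fold change (Sh-YAP1 minus Sh-NC) was 0.05 in the ER chaperone arm and 0.06 in the ATF4 arm, and -0.001 over all genes tested. Single genes were also compared by exact permutation of the 6 libraries (two-sided), where 3 against 3 cannot give a p below 0.1. In bulk RNA, fewer expressing cells and less RNA per cell cannot be told apart.

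**Figure D1:**
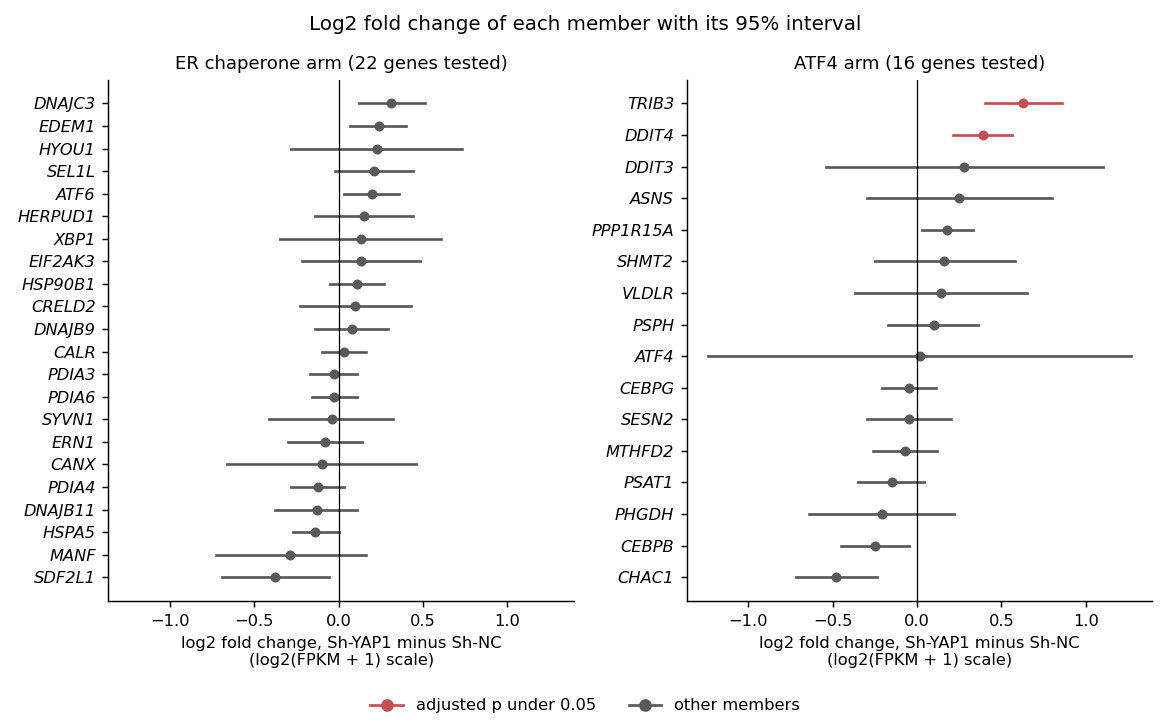
Log2 fold change (Sh-YAP1 minus Sh-NC, on the log2(FPKM + 1) scale) of each of the 38 tested members, ordered within each arm, with 95% intervals from limma as bars. Of all members, only TRIB3 (0.63) and DDIT4 (0.39) passed the test, the ER chaperone arm lay between -0.38 and 0.31, and ATF4 and DDIT3 had the widest intervals.

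The intervals of the members, which rest on the spread between these libraries alone, differed in width. On the log2(FPKM + 1) scale, the 95% interval lay within 1.5-fold in either direction for 17 of the 22 ER chaperone arm members. Of all genes tested, 65.9% had such an interval, and this scale narrows the intervals of low genes. CANX, SDF2L1, HYOU1, XBP1 and MANF were the 5 whose interval reached further, with bounds between -0.73 and 0.73 on the log2 scale. In the ATF4 arm 9 of 16 intervals were that narrow, and the bounds of the arm ran from -1.24 to 1.27. The summed FPKM of the ER chaperone arm was 1631, 1645 and 1718 in Sh-NC and 1697, 1687 and 1621 in Sh-YAP1, so the groups overlapped. CALR alone, the most abundant member, was between 604 and 637 FPKM in each library. The summed FPKM of the ATF4 arm was 341, 441 and 386 in Sh-NC and 388, 415 and 480 in Sh-YAP1, again with overlap.

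The 4 sensors and transcription factors of the ER arm had log2 fold changes between -0.08 and 0.20, and none passed the test. With the highest transcript entry of each gene alone, EIF2AK3 was at 0.73, XBP1 at -0.32 and ERN1 at 0.05, again with none called. ATF6, the sensor that is cut in the Golgi, was 13.0, 13.5 and 13.8 FPKM in Sh-NC, against 16.03, 15.0 and 15.6 FPKM in Sh-YAP1. All 3 Sh-YAP1 libraries were above the 3 Sh-NC libraries, yet the log2 fold change of 0.20 (SE 0.07) had an adjusted p of 0.167. ERN1, the kinase and endonuclease that splices XBP1, was 2.10, 2.44 and 2.12 FPKM in Sh-NC, against 2.11, 2.02 and 2.03 FPKM in Sh-YAP1, with overlap and an adjusted p of 0.682. EIF2AK3 was 5.05, 4.13 and 6.01 FPKM in Sh-NC, against 6.22, 4.76 and 5.85 FPKM in Sh-YAP1, also overlapping (adjusted p = 0.655). XBP1, the factor made from the spliced mRNA, was 16.4, 20.1 and 20.5 FPKM in Sh-NC, against 18.3, 17.2 and 28.6 FPKM in Sh-YAP1. Its high value was that of Sh-YAP1 replicate 3 alone, and the log2 fold change was 0.13 (SE 0.20, adjusted p = 0.749), or -0.09 without that library. Splicing of XBP1 was not analysed here, since the values name genes but not transcripts. The cutting of ATF6 and the phosphorylation of EIF2AK3 are not measured by the mRNA levels of these 2 genes.

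HSPA5, the Hsp70 chaperone of the ER lumen also called BiP or GRP78, was 128, 129 and 124 FPKM in Sh-NC, against 113, 117 and 116 FPKM in Sh-YAP1. The Sh-YAP1 libraries were all the lower ones, by a ratio of means of 0.910, but the difference did not pass the test (log2 fold change -0.14, SE 0.06, adjusted p = 0.232). Groups that do not overlap were seen in 9 of the 22 ER arm members, 6 with Sh-YAP1 higher and 3 with it lower, where 29.4% of all genes tested had such groups. The 3 lower ones were HSPA5, the disulfide isomerase PDIA4 and the cochaperone SDF2L1, and the 6 higher ones were HSP90B1, CALR, DNAJC3, EDEM1, SEL1L and ATF6.

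Among the 9 luminal chaperones and cochaperones, 5 had a log2 fold change above 0 and 4 below 0, and 3 of them had the largest uncalled differences of the ER arm. DNAJC3, a J-domain cochaperone of HSPA5 known as an inhibitor of EIF2AK3, was 5.11, 5.78 and 5.83 FPKM in Sh-NC, against 7.20, 7.04 and 7.26 FPKM in Sh-YAP1. The groups lay apart, and the log2 fold change was 0.31 (SE 0.08, adjusted p = 0.0939). SDF2L1, which works with ER J-domain proteins, was 10.5, 13.4 and 10.9 FPKM in Sh-NC, against 7.55, 10.03 and 8.58 FPKM in Sh-YAP1. These groups lay apart in the opposite direction, with a log2 fold change of -0.38 (SE 0.13, adjusted p = 0.169). MANF, a secreted ER stress protein that binds HSPA5, was 65.3, 49.5 and 74.1 FPKM in Sh-NC, against 44.6, 46.5 and 62.8 FPKM in Sh-YAP1. Here the groups overlapped, at a log2 fold change of -0.29 (SE 0.19, adjusted p = 0.418) that became -0.45 without Sh-NC replicate 2, -0.44 without Sh-YAP1 replicate 3 and -0.16 without Sh-NC replicate 3. HSP90B1, the Hsp90 of the ER, had means of 184 ± 11.3 and 199 ± 2.18 FPKM (SD, n = 3) in Sh-NC and Sh-YAP1 and an adjusted p of 0.366. The remaining chaperones were DNAJB9, DNAJB11, HYOU1 and CRELD2, whose groups overlapped and whose log2 fold changes lay between -0.13 and 0.23. With the highest transcript entry alone, HYOU1 turned from 0.23 to -0.47 and DNAJB11 went from -0.13 to -0.63, neither of them called.

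None of the 3 folding enzymes and 2 lectin chaperones passed the test, and all were abundant. The disulfide isomerases PDIA3, PDIA4 and PDIA6 had log2 fold changes between -0.12 and -0.03, all on the lower side, though quantile normalization turned PDIA3 and PDIA6 to 0.02 each. PDIA4 averaged 54.8 ± 1.42 FPKM in Sh-NC, against 50.2 ± 1.95 FPKM in Sh-YAP1 (SD, n = 3, adjusted p = 0.311). CALR, the soluble lectin chaperone calreticulin, averaged 610 ± 5.82 and 625 ± 10.8 FPKM (adjusted p = 0.772). CANX, its membrane-bound relative calnexin, averaged 207 ± 37.4 and 196 ± 53.5 FPKM (adjusted p = 0.835), with a 95% interval from -0.66 to 0.46 on the log2 scale that leaves a difference of over 1.5-fold possible. The log2 fold change of CANX ran from -0.24 to 0.15 with a library left out. With its highest transcript entry alone it was 1.98, again not called.

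Of the 4 members of ER-associated degradation, none passed the test. EDEM1 and SEL1L had groups that lay apart with Sh-YAP1 higher, as did 14.6% of all genes tested, and nothing is read from 2 of 4. EDEM1, a lectin that marks misfolded glycoproteins, averaged 11.9 ± 0.423 FPKM in Sh-NC, against 14.2 ± 0.191 FPKM in Sh-YAP1 (SD, n = 3), a log2 fold change of 0.24 (adjusted p = 0.114). SEL1L, the adaptor of the ubiquitin ligase SYVN1, averaged 23.7 ± 1.71 and 27.5 ± 2.63 FPKM (adjusted p = 0.265). SYVN1 itself (19.8 ± 3.17 and 19.2 ± 3.02 FPKM) and HERPUD1 (40.1 ± 3.48 and 44.7 ± 6.42 FPKM), a membrane protein of the same complex, had overlapping groups. With the highest transcript entry alone, SYVN1 turned from -0.04 to 0.79 and HERPUD1 from 0.15 to -1.34 on the log2 scale, neither of them called. SYVN1 ran from -0.16 to 0.06 with a library left out.

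Set against the promoters, the 10 ER arm members with an ERSE or ERSE-II had a median log2 fold change of 0.07 and a range from -0.38 to 0.23, with 6 above 0 and 4 below 0. The 11 members with a promoter window and neither motif had a median of 0.08 and a range from -0.29 to 0.31, with 6 above 0 and 5 below 0. The 4 members with a CARE, from both arms, had a median of 0.05, with 2 above 0 and 2 below 0. None of these members was called, which in groups this small, at 3.38% of all genes called, says nothing of the motifs. Of the 4 with a CARE, CHAC1 (-0.48) was the lowest and ASNS (0.25, or -0.02 without Sh-NC replicate 1) the highest.

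The 5 stress regulators of the ATF4 arm differed in sign, with 3 log2 fold changes above 0 and 2 below 0, and held both called members. TRIB3 (chr20:362835-397559, plus strand, GENCODE 29 on GRCh38), a pseudokinase induced by ATF4 and DDIT3 that restrains AKT and ATF4 itself, was 5.33, 4.46 and 4.93 FPKM in Sh-NC, against 7.47, 8.60 and 8.33 FPKM in Sh-YAP1. The lowest Sh-YAP1 library was above the highest Sh-NC library, and TRIB3 rose by 0.63 on the log2 scale (SE 0.10, adjusted p = 0.0257, exact p = 0.1). DDIT4 (chr10:72273920-72276036, plus strand), the mTORC1 inhibitor also called REDD1, was 72.5, 79.8 and 70.6 FPKM in Sh-NC, against 93.0, 97.9 and 100.85 FPKM in Sh-YAP1. These groups also lay apart, and DDIT4 rose by 0.39 on the log2 scale (SE 0.07, adjusted p = 0.0472, exact p = 0.1). Neither call held when any 1 of the 6 libraries was left out, with adjusted p-values from 0.0582 to 0.0967 for TRIB3 and from 0.083 to 0.148 for DDIT4, although the log2 fold changes stayed between 0.57 and 0.68 and between 0.35 and 0.44. Both genes hold over 90% of their FPKM in 1 transcript entry, and that entry taken alone was not called either (adjusted p = 0.142 and 0.0871). With no filter on low genes the adjusted p-values were 0.0568 and 0.082, and without the mean-variance trend that of DDIT4 was 0.0738.

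CHAC1, the glutathione-degrading enzyme that is a sensitive ATF4 target, was 6.0, 6.74 and 6.15 FPKM in Sh-NC, against 4.58, 3.73 and 4.44 FPKM in Sh-YAP1. All Sh-YAP1 libraries were lower than all Sh-NC libraries, opposite to TRIB3, by a log2 fold change of -0.48 (SE 0.10) that missed the threshold (adjusted p = 0.0571). PPP1R15A, the GADD34 subunit that directs eIF2α dephosphorylation, averaged 39.6 ± 1.20 FPKM in Sh-NC, against 45.0 ± 1.37 FPKM in Sh-YAP1 (SD, n = 3) without overlap (log2 fold change 0.18, adjusted p = 0.172). SESN2, a leucine sensor upstream of mTORC1, averaged 1.95 ± 0.153 and 1.85 ± 0.226 FPKM with overlap. In the whole ATF4 arm 7 of 16 members had groups that did not overlap, 3 with Sh-YAP1 higher (TRIB3, DDIT4 and PPP1R15A) against 14.6% of all genes, and 4 with it lower (CHAC1, PSAT1, CEBPB and CEBPG) against 14.7%.

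**Figure D2:**
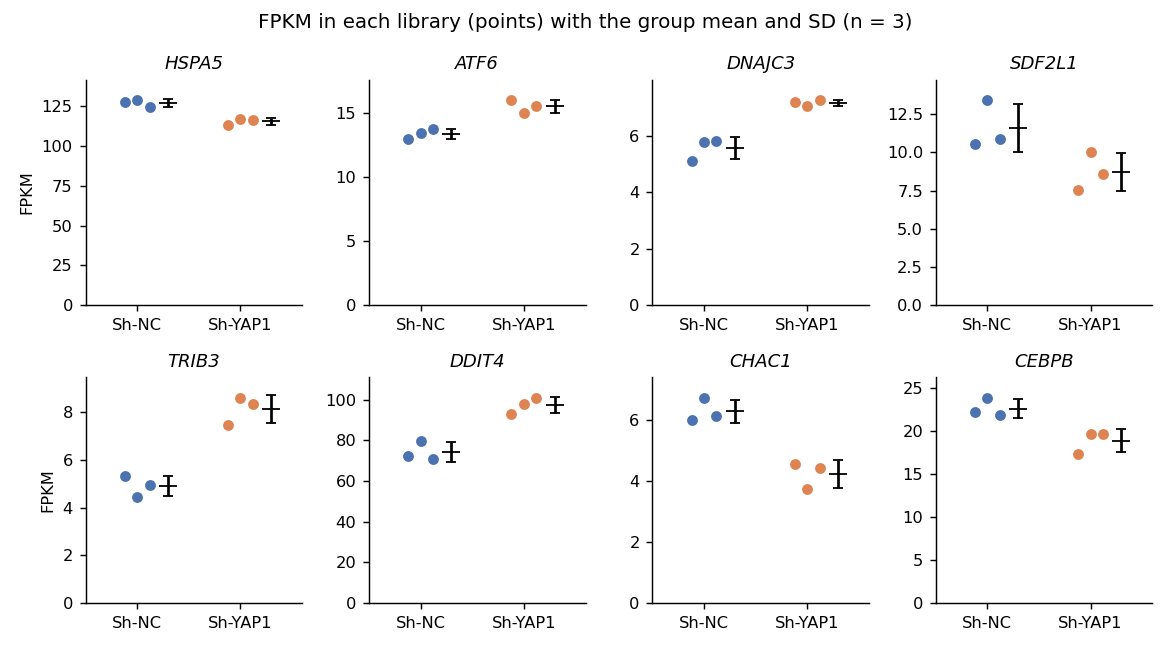
FPKM of 8 members in each of the 3 Sh-NC and 3 Sh-YAP1 libraries (points), with the group mean and SD beside them and each axis starting at 0. The 8 were chosen for the plot after their values were seen, from the 16 of 38 members whose groups did not overlap (29.4% of all genes tested had such groups). Sh-YAP1 was higher for ATF6, DNAJC3, TRIB3 and DDIT4 and lower for HSPA5, SDF2L1, CHAC1 and CEBPB, and of these TRIB3 and DDIT4 passed the test.

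The 4 transcription factors of the ATF4 arm were ATF4, DDIT3, CEBPB and CEBPG, and none passed the test. ATF4 was 20.5, 57.3 and 26.5 FPKM in Sh-NC, against 22.9, 21.4 and 65.6 FPKM in Sh-YAP1. Each group thus held 1 high library, Sh-NC replicate 2 and Sh-YAP1 replicate 3, and the log2 fold change was 0.02 with an SE of 0.52 (adjusted p = 0.99). DDIT3, the pro-apoptotic factor CHOP, was 5.55, 12.7 and 6.08 FPKM in Sh-NC, against 7.90, 7.47 and 14.1 FPKM in Sh-YAP1. The same libraries were the high ones in each group, and the log2 fold change was 0.28 (SE 0.34, adjusted p = 0.684), with values from 0.01 without Sh-YAP1 replicate 3 to 0.62 without Sh-NC replicate 2. Without Sh-NC replicate 1, Sh-NC replicate 3 or Sh-YAP1 replicate 3, the log2 fold change of ATF4 turned to -0.28, -0.11 and -0.49.

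The high libraries of ATF4 came from a single transcript entry. Among its 9 entries, the one with the highest mean was 0, 47.7 and 0 FPKM in Sh-NC, against 0, 0 and 55.6 FPKM in Sh-YAP1, and the second was 18.0, 7.09 and 7.00 FPKM in Sh-NC, against 19.5, 19.3 and 6.55 FPKM in Sh-YAP1. With the highest entry removed, ATF4 was 20.5, 9.64 and 26.5 FPKM in Sh-NC, against 22.9, 21.4 and 9.94 FPKM in Sh-YAP1, so the 2 libraries that had been highest became the lowest. The highest of the 6 entries of DDIT3 was 1.44, 6.79 and 2.69 FPKM in Sh-NC, against 0, 2.35 and 6.96 FPKM in Sh-YAP1. Without it DDIT3 was 4.11, 5.94 and 3.39 FPKM in Sh-NC, against 7.90, 5.12 and 7.12 FPKM in Sh-YAP1, which left an overlap. How the fragments were shared among transcripts is not given in the sources used here, and its part in the ATF4 and DDIT3 levels was not tested.

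**Figure D3:**
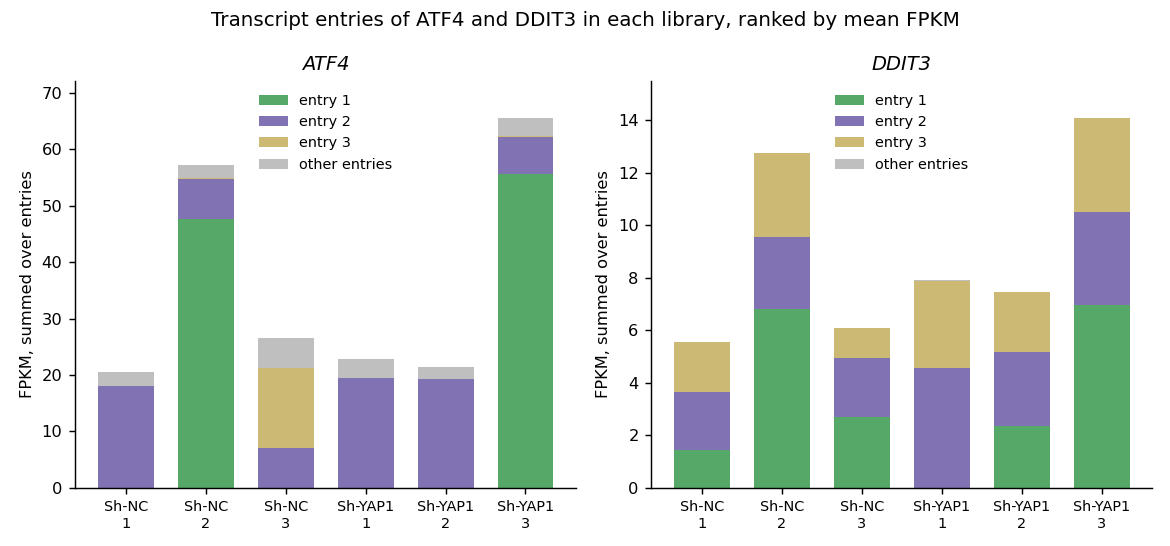
FPKM of the transcript entries of ATF4 and DDIT3 in each library, stacked so that the bar height is the gene's value and the axis starts at 0. Sh-NC replicate 2 and Sh-YAP1 replicate 3 are the tallest for both genes, and 1 ATF4 entry is at 47.7 and 55.6 FPKM in these libraries and at 0 in the other 4.

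CEBPB, a C/EBP factor that can pair with ATF4, averaged 22.6 ± 1.08 FPKM in Sh-NC, against 18.8 ± 1.35 FPKM in Sh-YAP1 (SD, n = 3), with groups apart and a log2 fold change of -0.25 (SE 0.08, adjusted p = 0.148). CEBPG, a partner of ATF4 on amino acid response genes, averaged 11.6 ± 0.180 and 11.2 ± 0.169 FPKM, a ratio of means of 0.962 (adjusted p = 0.705). Its groups did not overlap, at one of the smallest spreads of all members.

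The 6 enzymes of amino acid and one-carbon metabolism were split, with 3 log2 fold changes above 0 and 3 below 0, all between -0.21 and 0.25. The highest transcript entry alone gave log2 fold changes of 1.58 for ASNS (adjusted p = 0.472) and 3.94 for SHMT2 (adjusted p = 0.376). ASNS, asparagine synthetase, was 11.1, 19.3 and 21.5 FPKM in Sh-NC, against 19.7, 21.9 and 18.8 FPKM in Sh-YAP1. Only Sh-NC replicate 1 was low, and the log2 fold change of 0.25 (SE 0.23, adjusted p = 0.571) became -0.02 without it. In the serine pathway, PHGDH, the entry enzyme, was near the filter at 0.620 ± 0.272 FPKM in Sh-NC, against 0.400 ± 0.219 FPKM in Sh-YAP1 (SD, n = 3), and its log2 fold change of -0.21 became -0.73 when 0.01 rather than 1 was added before the logarithm. The next enzymes were far more abundant, PSAT1 at 41.2 ± 1.69 and 37.0 ± 3.08 FPKM and PSPH at 12.6 ± 1.1 and 13.5 ± 1.70 FPKM. PSAT1 had groups that lay apart (adjusted p = 0.33), and PHGDH and PSPH overlapped. The mitochondrial folate enzymes SHMT2 (96.1 ± 21.0 and 106 ± 11.2 FPKM) and MTHFD2 (12.3 ± 0.465 and 11.7 ± 0.778 FPKM) overlapped too. VLDLR, a lipoprotein receptor induced through ATF4, averaged 4.79 ± 0.756 and 5.50 ± 1.64 FPKM (adjusted p = 0.748). STC2, a secreted glycoprotein, was below the filter at 0.51, 0.43 and 0.38 FPKM in Sh-NC, against 0.68, 0.25 and 0.58 FPKM in Sh-YAP1 and was not tested.

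The spread between replicates differed with how a member's FPKM was divided over transcript entries. In 17 members at least 90% of the FPKM lay in 1 entry, and the SD between replicates had a median of 0.0651 on the log2(FPKM + 1) scale (range 0.0204 to 0.179). In the other 21 members the median SD was 0.216 (range 0.0201 to 0.817), and over all genes tested it was 0.15. Across the 38 members the share of the highest entry and the SD had a Spearman correlation of -0.684, given as a description over genes that share the same libraries. CALR was an exception, with 51.4% in its highest entry and an SD of 0.0201. In 11 members an entry was at 0.05 FPKM or less in a library and at 5 FPKM or more in another, and these were CANX, DNAJB11, HYOU1, HERPUD1, XBP1, SYVN1, MANF, ATF4, DDIT3, ASNS and SHMT2. TRIB3, DDIT4, CHAC1, HSPA5 and ATF6 were not among them, but the cut depends on a gene's level and on its number of entries. HSPA5 has only 1 entry. EIF2AK3 and PSPH fell just short of the cut, with entries that ran from 0 to 4.69 and from 0 to 4.68 FPKM.

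**Figure D4:**
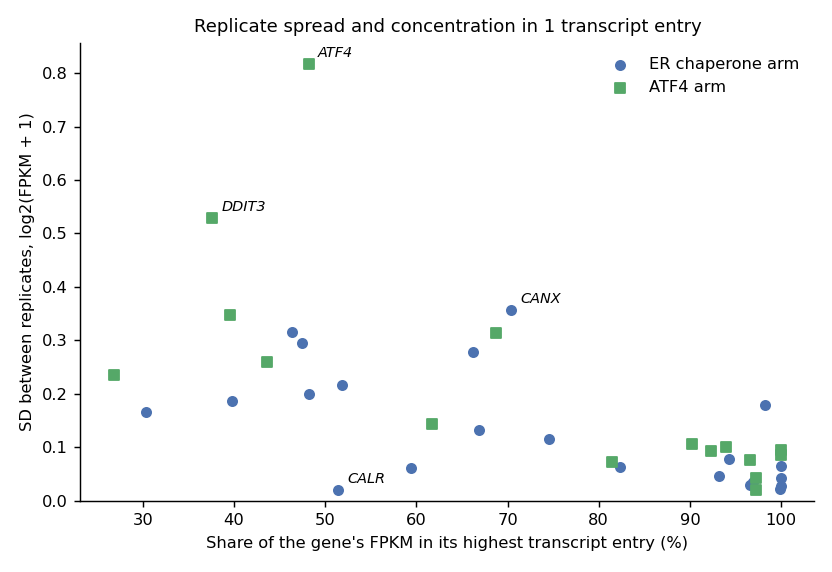
SD between replicates on the log2(FPKM + 1) scale against the percentage of a gene's FPKM in its highest transcript entry, 1 point for each of the 38 tested members, by arm. Members with at least 90% in 1 entry lie at an SD of 0.179 or less, and ATF4 (0.817) and DDIT3 (0.528) are the highest points.

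Other genes of the same pathways were taken from lists of known function. Of 48 further genes of ER folding, translocation and degradation, all tested, 2 were called higher and 0 lower, against 1.75% and 1.62% of all genes, with a median log2 fold change of -0.02. At counts this small, nothing is read from these shares or from those of the lists that follow. GANAB, the catalytic subunit of glucosidase II that trims glycans for the calnexin cycle, rose from 53.6 ± 7.15 to 135 ± 9.46 FPKM (SD, n = 3), by 1.33 on the log2 scale (adjusted p = 0.00686). ERO1A, the oxidase that recharges disulfide isomerases and is also induced by hypoxia and by DDIT3, rose from 20.1 ± 1.12 to 34.8 ± 2.97 FPKM, by 0.76 (adjusted p = 0.0129). Of 30 further genes of the ATF4 and eIF2α response, 26 were tested, and 1 was called higher and 0 lower, with a median log2 fold change of 0.07. This was OMA1, the mitochondrial protease that can start the response from mitochondria, which rose from 2.32 ± 0.480 to 5.20 ± 0.434 FPKM (log2 fold change 0.91, adjusted p = 0.0245). The call of GANAB held without any 1 library (adjusted p = 0.0243 to 0.0404), that of ERO1A was lost without Sh-NC replicate 1, Sh-NC replicate 2 or Sh-YAP1 replicate 2 (adjusted p = 0.0595, 0.0562 and 0.0549), and that of OMA1 was lost without any 1 of the 6 (0.0531 to 0.085). The highest entry alone lost the calls of ERO1A (log2 fold change 0.82, adjusted p = 0.0594) and OMA1 (0.30, adjusted p = 0.673), and OMA1 was not called with no filter either (adjusted p = 0.0603).

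A list of 19 cytosolic aminoacyl-tRNA synthetase genes, many of them ATF4 targets, had 0 called by limma, against 3.38% of all genes, and a median log2 fold change of 0. At an unadjusted p under 0.05, 3 were higher and 3 lower, against 10.8% and 11.1% of all genes. NARS1, of the same family, stood in the list of further response genes (log2 fold change 0.11, adjusted p = 0.413). Since TRIB3, DDIT4 and ERO1A also answer to low oxygen, 16 hypoxia-induced genes were read beside them. Of these 15 were tested, 0 were called higher and 1 lower, against 1.75% and 1.62% of all genes, and the median was 0.07. At an unadjusted p under 0.05, 2 were higher, MXI1 (log2 fold change 0.75) and BNIP3L (0.23), and 3 lower, HK2, LDHA and SLC2A1. The part of hypoxia in these levels was not tested. The gene called lower was HK2, a hexokinase, which fell from 36.8 ± 1.44 to 24.9 ± 1.68 FPKM, a log2 fold change of -0.55 (adjusted p = 0.0232), a call that was lost without any 1 of the 6 libraries (adjusted p = 0.0563 to 0.0884) and with its highest entry alone (0.0594).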

How the data were processed

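RNA from 3 Sh-NC and 3 Sh-YAP1 libraries of MDA-MB-231 cells was sequenced by LC-Bio for the authors. The authors deposited FPKM values, given to 2 decimals for each transcript entry of a library beside its gene identifier. The submitters' processing notes name HISAT2 2.0, Bowtie 0.12.2 and the build hg19. The quantifier, annotation and filters are not given in the sources used here, so their effect on the values could not be varied. The paper names another data series for its sequencing, and the libraries were taken as those of the paper by line, hairpin and number of replicates.

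The 229420 entries per library were summed by gene. Symbols and positions came from GENCODE 29 on GRCh38 by Ensembl identifier, and promoter windows from RefSeq on GRCh38.p14. Genes that averaged 0.5 FPKM or more were tested as log2(FPKM + 1) with limma 3.58.1 in R 4.3.3 (lmFit, eBayes with trend), the groups being the only factor, and p-values were adjusted by Benjamini-Hochberg over 14770 genes. Calls are at an adjusted p under 0.05. On this scale the changes of low genes are understated. The values are not counts, so no count model was used, and depth is unknown. Other steps used Python 3.11.15 (pandas 2.3.3, numpy 2.4.6, matplotlib 3.10.9, scipy 1.17.1).

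The members and lists were chosen with earlier results of these data known. Values in every library are given for called members, for ATF6, ERN1, EIF2AK3, XBP1, HSPA5, ATF4, DDIT3 and TRIB3, and for the 6 uncalled members with the largest absolute log2 fold change. Of the other lists, called genes are named. Alternatives covered the pseudocount, normalization, trend, filters, transcript entries, a replicate block and each library left out.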

Additional observations from a re-analysis of the deposited data

How the results depend on the processing

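Under all 16 alternatives 0 members of the ER chaperone arm were called by limma. The main fit called 3.38% of all genes and several alternatives far fewer. With 22 members, nothing is therefore read from this count for the ER chaperone arm. Its median log2 fold change of 0.054 became 0.081 with quantile normalization and 0.026 with the highest entry of each gene alone, and that of the ATF4 arm, 0.055, became 0.095 with a filter at 1 FPKM, 0.094 with low entries removed and -0.026 to 0.119 with 1 library left out. The 2 calls of the ATF4 arm became 1 without the mean-variance trend, and 0 with no filter, with the highest entry alone, with the replicate block and with any library left out (0 to 0). The 499 called of all genes became 232 with no filter, 96 with the highest entry alone and 78 to 171 with 1 library left out. The setting with no filter tests more genes, and those with 1 library left out hold fewer libraries. The cause of the fall with the highest entry alone was not tested. Of 605 values for single members, 564 kept their direction and their side of the threshold, 19 (TRIB3 and DDIT4) kept the direction but lost the call, and 22 in 13 members turned direction, none of them called.

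Those that turned were PDIA3 and PDIA6 with quantile normalization (0.02 each), ATF4 with median centring (-0.0013), and, with the highest entry alone, CANX (1.98), HYOU1 (-0.47), HERPUD1 (-1.34), XBP1 (-0.32), ERN1 (0.05), SYVN1 (0.79), CRELD2 (-0.0033) and DDIT3 (-0.47). With that entry alone, the log2 fold change of YAP1 was -1.97 (adjusted p = 0.381). For these the cause was not tested. The log2 fold changes that turned with 1 library left out were those of ATF4 (-0.49 to 0.44), ASNS (-0.02 to 0.43), SHMT2 (-0.03 to 0.29), SYVN1 (-0.16 to 0.06), CANX (-0.24 to 0.15) and XBP1 (-0.09 to 0.26), with the lowest and highest value over the 6 settings in brackets.

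Same-numbered libraries of the groups deviated from their group means with correlations of -0.0285, 0.0621 and 0.0042, so the numbers were not taken to pair them. With the replicate block 1 of all genes was called, and TRIB3 and DDIT4 had adjusted p-values of 0.141 and 0.157. The calls of GANAB, ERO1A, OMA1 and HK2 were lost too (0.0996, 0.121, 0.131 and 0.13), and that of YAP1 held. Depth could not be read from FPKM, so no smallest detectable value can be given.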
